A study of Mus musculus with 3 samples.

Results

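Molecular chaperones were examined in E14 mouse ESCs as 86 of the 23953 gene rows of the RNA-seq tables. They were chosen by a rule on gene symbols, with earlier results of these data known. The rule took the HSP70 and HSP110 genes (*Hspa*, *Hsph*), HSP90, the small heat shock proteins (*Hspb*) and the mitochondrial chaperonin pair *Hspd1* and *Hspe1*. It also took the J-domain genes *Dnaja*, *Dnajb* and *Dnajc*, the CCT chaperonin subunits with *Tcp1*, and the transcription factors *Hsf1* and *Hsf2*. *Hspg2*, a basement membrane proteoglycan, was not included. The symbols also brought in a few genes that are not chaperones, such as *Hspb11*, which encodes a protein of intraflagellar transport in cilia.

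RNA-seq was performed on 3 libraries, 1 per condition, of E14 ESCs cultured with LIF. The libraries are labelled WT, Tam (48 h of 4-OH tamoxifen) and DoxTam (48 h of 4-OH tamoxifen with doxycycline). The labels list both inducible constructs for all 3 samples, WT included: a CreERT2 that tamoxifen activates to excise the loxP-flanked *Oct4* distal enhancer (DE) and an *Oct4* transgene that doxycycline switches on. The treated cells carried loxP sites at both alleles (DE -/-) by the study's description, and the loxP lines were expanded from clones, so a difference from WT may belong to the clone, and the sources used here do not give whether WT was the parental line or untreated loxP cells. Each condition has 1 library, so differences could not be set against a spread between replicates, and no test was run.

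Chaperones bind unfolded proteins and help them reach or regain their shape. HSP70 proteins hold short hydrophobic stretches in a cycle driven by ATP, J-domain proteins deliver the clients and start that cycle, and HSP90 acts later on kinases, receptors and other clients. The CCT ring folds actin and tubulin in the cytosol, while the endoplasmic reticulum (ER) and mitochondria have their own sets. Heat and other proteotoxic stress raise many of these genes through HSF1, which binds inverted repeats of GAA in their promoters, and ESCs are known for high chaperone levels.

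Levels are in FPKM, fragments scaled to the length of the transcript and the sequencing depth, so they can be set beside each other between genes. *Pou5f1* (*Oct4*) was listed at 664 FPKM in WT, 529 in Tam and 458 in DoxTam. It thus remained high in Tam, whose label implies removal of the enhancer, and was lowest in the library whose label adds the *Oct4* transgene. These levels do not bear out the labels, whether libraries were exchanged was not tested, and all libraries are named here only by their labels. From the smallest levels above 0, the libraries held roughly 12400000, 5900000 and 7000000 fragments, which makes low genes less precise in Tam and DoxTam. The 8 ESC markers lay between 99.0 and 793 FPKM in every library. Fibroblast markers (6 genes) summed to 6.63, 4.68 and 3.74 FPKM in WT, Tam and DoxTam, with *Col3a1* at 0 in WT, and 5 primitive endoderm markers summed to 2.82, 2.63 and 2.29 FPKM.

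Chaperone transcripts were abundant in every library and differed little in total. The 86 members summed to 7514 FPKM in WT, 7354 in Tam and 7842 in DoxTam, which was 1.96%, 1.91% and 2.06% of the summed FPKM of genes other than small RNA genes. A few genes carried most of this: the 10 most abundant members held 66.5% of the WT sum, 65.9% of the Tam sum and 66.2% of the DoxTam sum. At 100 FPKM or more stood 19 members in WT, 19 in Tam and 20 in DoxTam, and 12 were under 1 FPKM in each. *Dnajc5g* was at 0 in WT and DoxTam and *Hspb3* at 0 in DoxTam, and no member was at 0 in Tam.

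**Figure D1:**
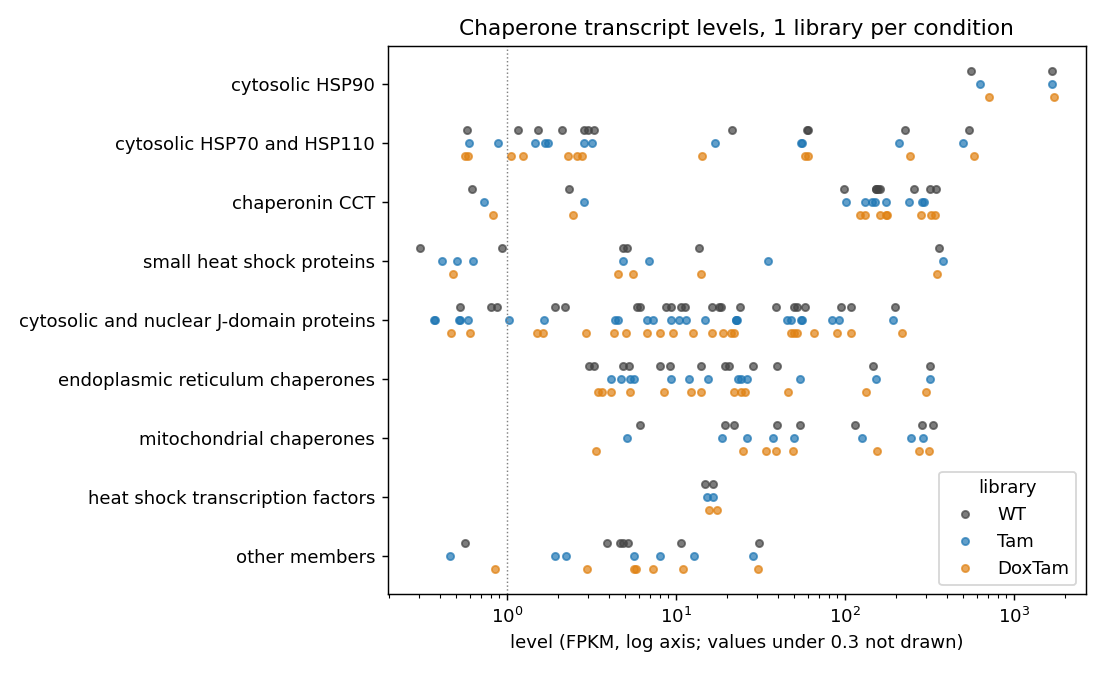
Level of each chaperone gene (FPKM, log axis) by compartment, with 1 point per gene and library and the dotted line at 1 FPKM. HSP90, the CCT ring and the leading HSP70, ER and mitochondrial chaperones stood near or above 100 FPKM in all 3 libraries, whereas most small heat shock proteins were under 10 FPKM.

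Differences between libraries were computed as log2((FPKM + 1)/(FPKM + 1)), called the fold below, for genes that reached 1 FPKM in either library of a pair. Higher and lower mean 1.5-fold or more (0.58 on this scale), which is a rule of size and not a test. In Tam against WT, 76 members were measured and 10 were too low. Of the 76, *Hspb8* and *Dnajb4* were higher (2, or 2.63%, beside 6.98% of the 12705 genes measured) and *Hspb11*, *Dnajb7* and *Dnajc22* were lower (3, or 3.95%, beside 3.59% of genes). In DoxTam against WT, 75 members were measured, of which *Dnajc19* was higher (1, or 1.33%, beside 4.12% of 12384 genes) and *Dnajc30* and *Hspa1b* were lower (2, or 2.67%, beside 5.78%). The members' shares lay near or under those of all genes. When every library was rescaled to the same total, small RNA genes included, the median fold of all genes became 0.15 in Tam and 0.32 in DoxTam, and 7 members were then higher and 3 lower in Tam and 10 higher and 0 lower in DoxTam. Over all genes the higher and lower calls went from 887 and 456 to 1412 and 272 in Tam and from 510 and 716 to 2784 and 222 in DoxTam, so small folds are best read against the median of all genes. With small RNA genes left out of the total, the members past 1.5-fold were the same as before rescaling. The medians of all genes were then 0.02 in Tam and 0.0046 in DoxTam. Rescaling below includes small RNA genes unless stated.

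The median fold of the members was -0.01 in Tam (0.02 for all genes) and 0.0088 in DoxTam (-0.0028 for all genes). Between the quartiles, members spanned -0.12 to 0.18 in Tam and -0.12 to 0.17 in DoxTam, against -0.19 to 0.24 and -0.24 to 0.23 for all genes. Within 1.2-fold of WT were 53 of the 76 members in Tam (69.7%, and 58.4% of all genes) and 53 of the 75 in DoxTam (70.7%, and 54.8%). Among genes at 100 FPKM or more in WT, 97 of 708 (13.7%) were past 1.5-fold in Tam and 115 (16.2%) in DoxTam. Small RNA genes were not left out of these 708, so they are not a matched set for the members. The 19 members at that level had folds of -0.37 to 0.16 in Tam and -0.22 to 0.43 in DoxTam. Close to the limit, *Dnaja4* (0.56) stayed inside it and *Dnajb4* (0.75) passed it on the higher side in Tam, and *Hspa4l* (-0.55) and *Dnajc22* (-0.76) did so on the lower side. In DoxTam the neighbours of the limit were *Dnajb9* (0.55) and *Dnajc19* (0.77), and *Hspbp1* (-0.55) and *Hspa1b* (-0.60).

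**Figure D2:**
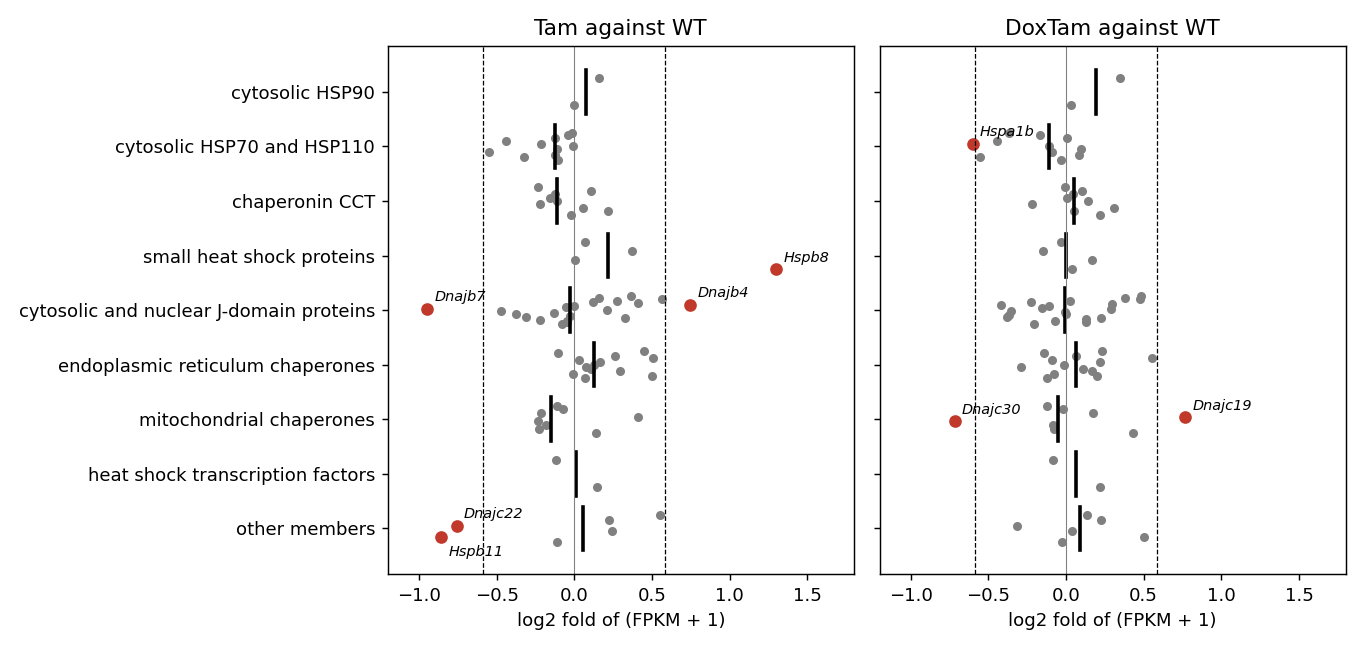
Log2 fold of (FPKM + 1) of each measured chaperone gene against WT, by compartment, for Tam on the left and DoxTam on the right. Points are genes, bars are the medians of the compartments, dashed lines mark 1.5-fold and red points are past it. *Hspb8* in Tam (1.30) stood farthest from 0, and most genes of every compartment lay between the dashed lines.

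The small heat shock proteins, which hold unfolded proteins in a soluble form without using ATP, included the member with the largest fold. *Hspb8* was listed at 13.6 FPKM in WT, 34.9 in Tam and 14.0 in DoxTam. Tam stood alone as the high library, at 2.57 times the WT level, and WT and DoxTam were nearly level. Its folds were 1.30 in Tam, 0.04 in DoxTam and -1.26 for DoxTam against Tam, on roughly 306, 375 and 177 fragments. HSPB8 works with BAG3, a co-chaperone that brings HSP70 clients to autophagy, and the gene lies at chr5:116858503-116872873 (mm9). *Bag3* was listed at 10.7 FPKM in WT, 11.7 in Tam and 11.0 in DoxTam and did not share the difference.

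*Hspb1* (HSP27), which also acts on actin filaments, was by far the most abundant small heat shock protein, at 360 FPKM in WT, 378 in Tam and 352 in DoxTam. Its folds were 0.07 in Tam and -0.03 in DoxTam, and they became 0.29 and 0.31 with the GC trend described below removed (its transcript has a GC content of 61.7%), so that the direction turned for DoxTam. *Hspb2*, known from muscle, was listed at 5.15, 6.95 and 4.55 FPKM in WT, Tam and DoxTam, highest in Tam but within 1.5-fold. The 4 measured small heat shock proteins were above 0 in Tam, with a median of 0.22, and had a median of 0.0032 in DoxTam, where 2 of 4 were above 0. With the GC trend removed the medians were 0.42 and 0.23 and all 4 were above 0 in both. *Cryab* (αB-crystallin), a small heat shock protein outside the symbol rule, was listed at 3.42 FPKM in WT, 7.23 in Tam and 4.92 in DoxTam, again highest in Tam (fold 0.90). The trophectoderm marker *Cdx2* had its high library in Tam as well, at 0.639, 2.82 and 0.128 FPKM in WT, Tam and DoxTam. The 6 trophectoderm markers summed to 27.0, 31.7 and 28.1 FPKM, and none was at 0. Of 5 measured in Tam only *Cdx2* was past 1.5-fold (1, or 20%, beside 6.98% of all genes higher). Of 4 measured in DoxTam, *Eomes* was higher (1, or 25%, beside 4.12% of all genes) and *Tfap2c* was lower (1, or 25%, beside 5.78%). *Krt18* (10.8, 13.5 and 10.6 FPKM) was also highest in Tam, within 1.5-fold. Other markers of the list had another order. *Eomes* (2.91, 4.08 and 5.43 FPKM) and *Krt8* (5.11, 5.98 and 7.25 FPKM) were highest in DoxTam. *Tfap2c* (6.55, 4.46 and 3.70 FPKM) and *Hand1* (0.995, 0.873 and 0.963 FPKM) were highest in WT. The part of such cells in the level of *Hspb8* was not tested, and in bulk RNA more cells of a type and more RNA per cell cannot be told apart.

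**Figure D3:**
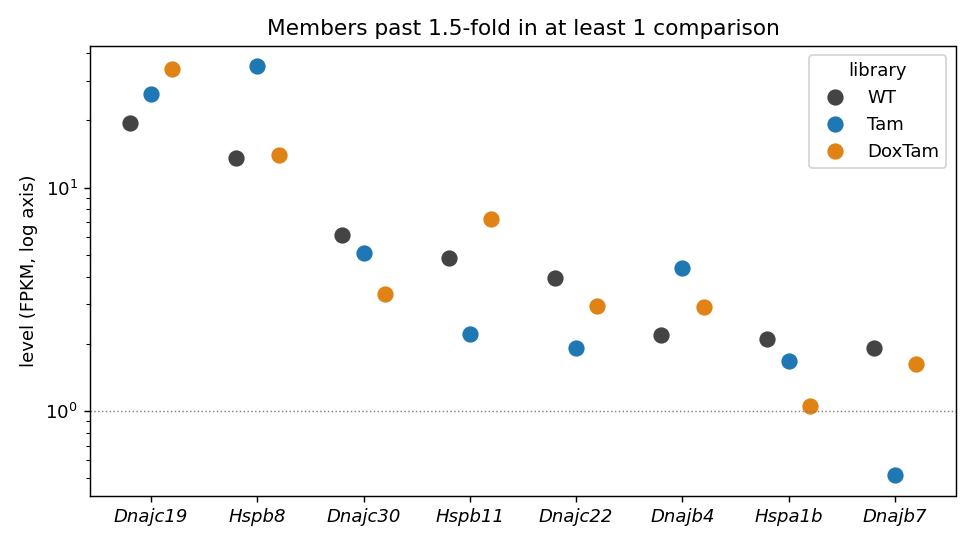
Levels (FPKM, log axis) in the WT, Tam and DoxTam libraries of the chaperone genes past 1.5-fold in at least 1 of the 3 comparisons, ordered by their WT level, with 1 point per library and the dotted line at 1 FPKM. *Hspb8* was high in Tam alone, *Hspb11* was low in Tam and high in DoxTam, and *Dnajc19* was the only 1 of them above 15 FPKM in WT.

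HSP90 was the largest class by level. *Hsp90ab1*, the constitutive cytosolic HSP90, was listed at 1682 FPKM in WT, 1679 in Tam and 1720 in DoxTam. That placed it 13th, 14th and 11th among all genes other than small RNA genes, with folds of 0.00 and 0.03. *Hsp90aa1*, the stress-inducible form, was listed at 560, 626 and 714 FPKM, lowest in WT and highest in DoxTam, with folds of 0.16 and 0.35 that became 0.02 and 0.09 once the GC trend was removed. The pair made up 29.8%, 31.3% and 31.0% of all member FPKM in WT, Tam and DoxTam, and the ratio of *Hsp90ab1* to *Hsp90aa1* was 3.01, 2.68 and 2.41.

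Levels of the cytosolic HSP70 and HSP110 genes ranged widely, and the heat-inducible *Hspa1a* and *Hspa1b* were close to the limit of measurement. *Hspa2*, *Hspa4l*, *Hspa12a* and *Hspa12b* were low as well, at 1.52 to 3.25 FPKM in WT. *Hsph1* was listed at 59.4 FPKM in WT, 55.2 in Tam and 58.1 in DoxTam. *Hspa8* (HSC70), the main constitutive HSP70, was listed at 545 FPKM in WT, 500 in Tam and 578 in DoxTam. *Hspa4*, an HSP110 that exchanges the nucleotide of HSP70, was listed at 225, 209 and 241 FPKM, and *Hspa14*, an HSP70 of the ribosome, at 60.2, 55.1 and 60.6 FPKM. *Hsph1*, *Hspa8*, *Hspa4* and *Hspa14* were lowest in Tam by a small margin. The 11 measured genes of the class were all below 0 in Tam, from -0.55 to -0.0068, with a median of -0.12. All 11 also lay under the median of all genes. They still did after rescaling every library to the same total, where 7 of the 11 came out above 0. With small RNA genes left out of that total, 0 came out above 0. With the GC trend removed, 9 of 11 lay under the median of all genes and 2 above it. The class summed to 926, 848 and 962 FPKM, and in DoxTam 8 of 11 were below 0, with a median of -0.11. That median was 0.0088 over the 5 genes at 5 FPKM or more, of which 3 were above 0. It was 0.16 with libraries rescaled to the same total, where 7 of 11 were above 0 but 7 of 11 lay under the median of all genes. With small RNA genes left out of that total it was -0.10. With the GC trend removed it was -0.15, with 9 of 11 below 0 and 8 of 11 under the median of all genes.

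The inducible *Hspa1a* and *Hspa1b*, which HSF1 raises strongly in heat, stood at 1.16, 0.594 and 0.586 FPKM and at 2.11, 1.67 and 1.05 FPKM in WT, Tam and DoxTam. Both were highest in WT, at less than 1% of the level of *Hspa8*. The fold of *Hspa1b* in DoxTam was -0.60 on roughly 73 fragments in WT and 21 in DoxTam, and it became -0.34 with the GC trend removed. The coding sequences of the pair are 99.5% identical, so the split of reads between them is uncertain. They lie with the related *Hspa1l* on the chromosome of the loxP-flanked enhancer, ending 534, 547 and 527 kb before the start of *Pou5f1* (chr17:35106303-35109101 for *Hspa1a*, chr17:35093373-35096183 for *Hspa1b* and chr17:35109647-35116173 for *Hspa1l*, mm9). *Hspa1l* was under 1 FPKM in each library.

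The *Hspa1b* promoter is shown because its heat shock element is the textbook example of HSF1 control. A stretch of 38 bases before its start holds 2 GAA units as an inverted repeat, in capitals (RefSeq, GRCm38.p6, chr17:34959320-34959357, minus strand).
Hspa1b: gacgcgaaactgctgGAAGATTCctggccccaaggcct

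J-domain proteins of the cytosol and nucleus were the largest group, with 25 members of which 21 were measured in Tam and 20 in DoxTam. *Dnajc8*, a protein of the spliceosome, was listed at 198 FPKM in WT, 191 in Tam and 217 in DoxTam. *Dnajc21*, which takes part in the maturation of the large ribosomal subunit, was listed at 109, 83.8 and 109 FPKM, lower in Tam than in the other two libraries (fold -0.37). *Dnajc7*, which binds both HSP70 and HSP90, was listed at 94.8, 91.6 and 90.1 FPKM. The group was balanced, with medians of -0.03 in Tam and -0.0035 in DoxTam and 10 of 21 and 9 of 20 genes above 0.

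A pair of low genes in this group passed 1.5-fold in Tam, in opposite directions. *Dnajb4*, a cytosolic partner of HSP70 (chr3:151846834-151873047), was listed at 2.20 FPKM in WT, 4.37 in Tam and 2.93 in DoxTam. Its fold of 0.75 in Tam became 0.53, inside the limit, with the GC trend removed. *Dnajb7* (chr15:81230617-81285318) was listed at 1.92, 0.515 and 1.62 FPKM, low in Tam, with a fold of -0.95 that rests on roughly 28 fragments in WT and 4 in Tam. *Dnajb1*, the heat-inducible partner of HSP70, was within 1.5-fold at 18.5, 22.6 and 18.8 FPKM.

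The 8 subunits of the CCT ring, which stand in equal number in the assembled complex, were expressed within a narrow range. They spanned 98.1 to 344 FPKM in WT, 102 to 292 in Tam and 122 to 342 in DoxTam, so the highest was 3.50, 2.87 and 2.80 times the lowest. *Cct2* was listed at 344 FPKM in WT, 292 in Tam and 342 in DoxTam, *Cct5* at 319, 285 and 321, and *Cct6a* at 257, 237 and 283. Each of them was lowest in Tam. Of the 8, 6 were below 0 in Tam and 6 above 0 in DoxTam, and 7 were higher in DoxTam than in Tam, none by 1.5-fold. The ring summed to 1640, 1515 and 1712 FPKM. For the measured members of the class the medians were -0.11 in Tam and 0.05 in DoxTam. These medians became 0.03 and 0.39 with libraries rescaled to the same total and -0.17 and -0.0026 with the GC trend removed. They were -0.12 and 0.06 after rescaling with small RNA genes left out of the total. In Tam 6 of 9 lay under the median of all genes both before and after rescaling. In DoxTam 7 of 9 lay above it before rescaling and 9 of 10 after. *Cct8l1* and *Cct6b*, forms outside the ring of most tissues, were under 3 FPKM throughout.

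Mitochondrial chaperones fold imported proteins with HSP60, which *Hspd1* encodes, its lid HSP10 (*Hspe1*) and the mitochondrial HSP70 (*Hspa9*). *Hspa9* was listed at 330 FPKM in WT, 290 in Tam and 312 in DoxTam, and *Hspd1* at 287, 244 and 272 FPKM. *Hspe1* was listed at 115, 126 and 155 FPKM. *Hspa9* and *Hspd1* were thus highest in WT and *Hspe1* was lowest there, and the ratio of *Hspe1* to *Hspd1* was 0.400 in WT, 0.518 in Tam and 0.570 in DoxTam. The fold of *Hspe1* in DoxTam was 0.43 and stayed at 0.46 with the GC trend removed. The median of the 8 mitochondrial members was -0.15 in Tam (6 below 0) and -0.05 in DoxTam (5 below 0). It was -0.0023 and 0.31 with libraries rescaled to the same total, where 6 and 4 of the 8 lay under the median of all genes. With small RNA genes left out of that total it was -0.15 and -0.04.

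**Figure D4:**
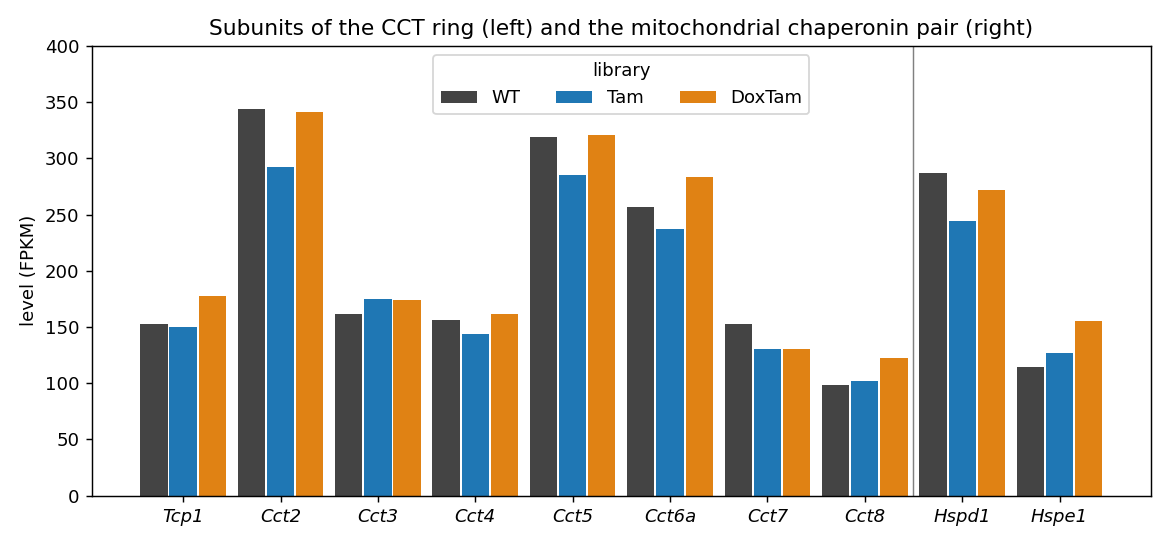
Levels (FPKM, bars from 0) of the 8 CCT ring subunits and of *Hspd1* and *Hspe1* in the WT, Tam and DoxTam libraries, with no error bars since each condition has 1 library. *Cct2*, *Cct5*, *Cct6a* and *Hspd1* were lowest in Tam, and *Hspe1* stood at 115 FPKM in WT and 155 FPKM in DoxTam.

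*Hspd1* and *Hspe1* lie head to head, 215 bases apart in the mm9 loci, and share 1 promoter region. It is shown because the 2 genes differed in their order across these libraries. The stretch holds 4 alternating GAA units as overlapping 3-unit heat shock elements, in capitals, 89 to 72 bases before the *Hspe1* start (RefSeq, GRCm38.p6, chr1:55088053-55088082, plus strand). For comparison, the *Dnajb6* promoter holds 1 such element of 3 units, 46 to 34 bases before its start (chr5:29735846-29735870, plus strand), and *Dnajb6*, which keeps aggregating proteins soluble, was listed at 23.9, 23.0 and 22.1 FPKM.
Hspe1: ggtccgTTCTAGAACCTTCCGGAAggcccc
Dnajb6: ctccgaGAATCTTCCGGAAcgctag

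The 2 mitochondrial J-domain genes past 1.5-fold in DoxTam differed in direction. *Dnajc19*, a subunit of the motor that pulls proteins into the matrix (chr3:33919000-33980276), was listed at 19.6 FPKM in WT, 26.4 in Tam and 34.1 in DoxTam. Its folds of 0.41 and 0.77 became 0.18 and 0.41 with the GC trend removed. *Dnajc30* (chr5:135528826-135541235) was listed at 6.15, 5.09 and 3.35 FPKM, lowest in DoxTam, and its fold of -0.72 became -0.45. The transcript of *Dnajc19* has a GC content of 40.3% and that of *Dnajc30* of 58.4%. *Dnajc30* shares 37.6% of its exon bases with *Wbscr22* on the opposite strand, and the sources used here do not say whether the authors counted by strand.

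In the ER most members lay a little above 0 in Tam, none by 1.5-fold. *Hsp90b1* (GRP94), the HSP90 of the ER, was listed at 318 FPKM in WT, 316 in Tam and 301 in DoxTam, and *Hspa5* (BiP), the ER HSP70 and a main target of the unfolded protein response, at 146, 153 and 134 FPKM. *Dnajb11*, a J-domain partner of BiP, was listed at 39.3, 54.1 and 46.2 FPKM, lowest in WT, with folds of 0.45 and 0.23. Of the 13 ER members, 11 were above 0 in Tam, with a median of 0.13. In DoxTam 7 of 13 were above 0, with a median of 0.06. The 2 most abundant members, *Hsp90b1* and *Hspa5*, had small folds, and the summed level of the compartment was 619, 653 and 605 FPKM. With the GC trend removed the medians were 0.06 in Tam and -0.13 in DoxTam, so that the direction turned for DoxTam, where 3 of 13 were then above 0. Against Tam, 10 of 13 ER members were lower in DoxTam, and 12 were with the GC trend removed. With libraries rescaled to the same total 4 were lower, and 10 of 13 still lay under the median of all genes. With small RNA genes left out of that total, 10 were lower.

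The ER members *Hspa5*, *Hsp90b1* and *Dnajc3* (P58IPK, a BiP partner, at 19.5, 24.2 and 22.1 FPKM in WT, Tam and DoxTam) were the only members with a promoter in the RefSeq table that holds the ER stress element, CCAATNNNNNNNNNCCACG. They are shown because this element is known from targets of the unfolded protein response, though a gene without it may also be a target. Capitals mark the element, which lies 65 to 47 bases before the *Hspa5* start (RefSeq, GRCm38.p6, chr2:34772005-34772063, plus strand) and 105 to 87 bases before the *Dnajc3* start (chr14:118937807-118937865, plus strand). In *Hsp90b1* there are 2 matches from 212 to 89 bases before the start, the latter on the reverse strand (chr10:86705523-86705666, minus strand). The folds of the 3 genes in Tam were 0.07, -0.0076 and 0.29, and in DoxTam -0.12, -0.08 and 0.17, in the order *Hspa5*, *Hsp90b1*, *Dnajc3*.
Hspa5: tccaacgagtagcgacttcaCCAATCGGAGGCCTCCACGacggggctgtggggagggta
Hsp90b1: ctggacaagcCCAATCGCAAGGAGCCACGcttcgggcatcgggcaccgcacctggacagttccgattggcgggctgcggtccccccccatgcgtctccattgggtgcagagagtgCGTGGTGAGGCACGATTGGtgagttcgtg
Dnajc3: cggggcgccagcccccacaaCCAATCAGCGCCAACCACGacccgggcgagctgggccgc

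Promoters of 250 bases before to 50 after the start were found in the RefSeq table for 70 of the 86 members, as 89 promoters. The ER stress element was in 3 of these 89 (3.37%) and in 39 of the 32851 promoters of the table (0.119%), with both strands searched. Heat shock elements of 3 units, GAANNTTCNNGAA on either strand, were in 6 member promoters (6.74%, and 0.603% of all promoters), which belong to *Hspd1*, *Hspe1*, *Hsph1* and *Dnajb6*. These 6 are not separate sites. Overlapping promoters of *Hsph1* hold the same match, as do those of *Dnajb6*, and *Hspd1* and *Hspe1* share 1 stretch. Overlapping promoters were not merged in any of these counts, so a site can count more than once. The 2-unit element, GAANNTTC or TTCNNGAA, lies within the 3-unit one and is common, in 22 member promoters (24.7%) and 15.1% of all. These matches describe the letters of the promoters, and binding was not measured. Genes with the 3-unit element had folds between -0.23 and 0.14 in Tam and between -0.11 and 0.43 in DoxTam.

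The heat shock factors themselves were moderately expressed and near WT in both libraries. *Hsf1*, the main factor of the heat response, was listed at 16.6 FPKM in WT, 15.2 in Tam and 15.6 in DoxTam. *Hsf2*, which forms mixed trimers with HSF1, was listed at 14.9, 16.6 and 17.5 FPKM. Their folds lay between -0.12 and 0.22.

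Of the remaining members, *Hspb11* (chr4:106926538-106952493) was listed at 4.82 FPKM in WT, 2.22 in Tam and 7.25 in DoxTam, on roughly 36, 8 and 31 fragments. Tam was the low library and DoxTam the high one, with folds of -0.86, 0.50 and 1.36 for Tam and DoxTam against WT and DoxTam against Tam. *Dnajc22* (chr15:98929914-98935138) was listed at 3.92, 1.91 and 2.96 FPKM, lowest in Tam (fold -0.76, on roughly 76 fragments in WT and 18 in Tam). *Hspbap1*, which encodes a protein that binds HSP27, was listed at 31.0, 28.6 and 30.4 FPKM. *Dnajc4* was listed at 10.6, 12.7 and 10.9 FPKM, and *Dnajc12*, a partner of the aromatic amino acid hydroxylases, at 5.18, 8.05 and 5.79 FPKM, both highest in Tam but within 1.5-fold.

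DoxTam was also set against Tam, the comparison that the added doxycycline implies. Of 75 measured members, *Hspb11* and *Dnajb7* were higher (2, or 2.67%, beside 2.09% of 12628 genes) and *Hspb8* was lower (1, or 1.33%, beside 5.73%). The nearest members inside the limit were *Hspa4l* (0.46) and *Hspb2* (-0.52), and the nearest past it were *Dnajb7* (0.79) and *Hspb8* (-1.26). The median fold was 0.0018, and -0.02 for all genes. The Tam levels of *Hspb11* and *Dnajb7* rest on the fewest fragments of these genes. These values use the same libraries as the comparisons with WT and are no further evidence for either.

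Folds depended on the GC content of the transcripts. Across all genes with a GC value, Spearman's rho of fold with GC content was -0.389 in Tam (11292 genes) and -0.611 in DoxTam (11028 genes), and across the members it was -0.155 and -0.574, as a description of genes that share a library and are not independent. In DoxTam when all genes were cut by GC content into 10 groups of like size, the lowest group had a median fold of 0.34 and the highest group of -0.34. *Dnajc19* lay in the low-GC range and *Dnajc30* and *Hspa1b* in the high-GC range, and with the trend removed none of the 3 was past 1.5-fold. *Hspb8*, at a GC content of 53.0%, had folds of 1.34 in Tam and 0.11 in DoxTam after removal. The source of the trend was not tested.

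**Figure D5:**
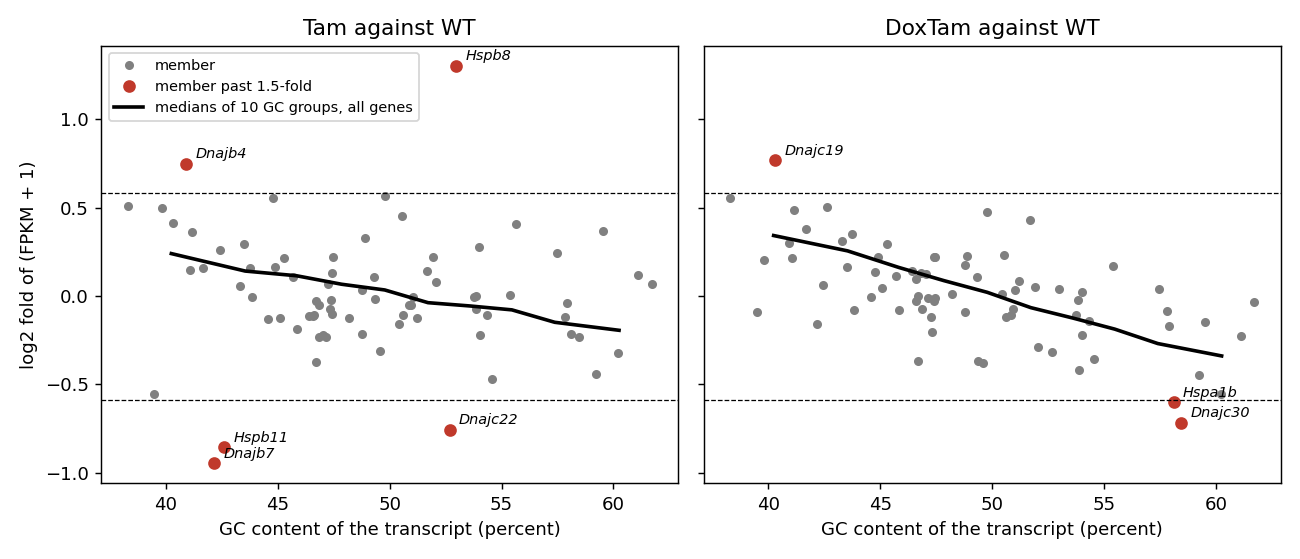
Log2 fold of (FPKM + 1) against WT of each chaperone gene by the GC content of its longest transcript (percent), for Tam on the left and DoxTam on the right, with red points past 1.5-fold (dashed lines) and the black line through the medians of 10 groups of all genes cut by GC content. In DoxTam the members followed the line, which ran from 0.34 to -0.34, and in Tam *Hspb8* lay far above it.

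Co-chaperones and related folding factors outside the symbol rule also stayed near WT for the most part. A list of 22 measured genes held co-chaperones of HSP90 and HSP70 and also *Cryab*, which is a small heat shock protein. In Tam *Cryab* was higher (1, or 4.55%, beside 6.98% of all genes), so no co-chaperone of the list was. *Fkbp5* was lower in Tam (1, or 4.55%, beside 3.59%). The median in Tam was -0.20 and became -0.11 with the GC trend removed. In DoxTam *Bag2* (1.28, 1.54 and 3.46 FPKM in WT, Tam and DoxTam) and *Cdc37l1* (21.6, 27.0 and 35.0) were higher, and *Fkbp5* and *Cdc37* were lower (2, or 9.09%, in each direction, beside 4.12% and 5.78% of all genes), with a median of -0.13. With the GC trend removed the DoxTam folds of *Cdc37l1* (0.35), *Fkbp5* (-0.57) and *Cdc37* (-0.49) were inside 1.5-fold, that of *Bag2* stayed at 0.96, and the median was -0.05. *Fkbp5*, an HSP90 partner that modulates steroid receptors, was listed at 55.5, 34.4 and 36.4 FPKM, with folds of -0.68 and -0.59. *Cdc37*, which brings kinases to HSP90, was listed at 73.0, 56.0 and 48.3 FPKM.

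Prefoldin hands clients to the CCT ring. A list of prefoldin subunits and related genes, such as *Uri1*, had 7 measured genes. *Uri1* (38.6, 24.5 and 36.4 FPKM) was lower in Tam (-0.63), which is 1, or 14.3%, beside 3.59% of all genes. *Pfdn2* (101, 71.1 and 59.1 FPKM) was lower in DoxTam (-0.76), which is 1, or 14.3%, beside 5.78% of all genes. Of 24 genes of the unfolded protein response and ER folding, *Sec61b*, a subunit of the ER translocon, was higher in Tam at 42.2, 66.3 and 54.1 FPKM (0.64). That is 1, or 4.17%, beside 6.98% of all genes, and none was past 1.5-fold in DoxTam. The medians of this list were 0.03 and 0.0011. Of 13 genes of mitochondrial folding and proteolysis, *Afg3l2*, a protease of the inner membrane, was lower in DoxTam at 42.5, 34.9 and 25.2 FPKM (-0.73). That is 1, or 7.69%, beside 5.78% of all genes, and none was past the limit in Tam. Among 5 other genes of the heat shock factor family and its regulators, 3 were measured in DoxTam. *Hsf4* was lower there at 1.13, 0.908 and 0.292 FPKM (-0.72), which is 1, or 33.3%, beside 5.78% of all genes. It was close to the limit of measurement, and its fold became -0.38, inside 1.5-fold, with the GC trend removed.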

How the data were processed

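RNA-seq levels were taken from 2 tables, each with 1 treated library and WT. The authors deposited FPKM values, made with Cufflinks 2.0.0 after TopHat and Bowtie (versions not given) on mm9, per the submitters' processing notes. The authors' own columns of log2 fold, test statistic, p-value, q-value and significance were not used. Of the gene names, 23926 were in both tables and 27 were not joined. For 2 genes the WT level was not the same in both tables (over 1% apart).

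Folds were log2((FPKM + 1)/(FPKM + 1)) for genes at 1 FPKM or more in 1 of the 2 libraries, counted at 1.5-fold. Named members were those past 1.5-fold, those nearest the limit, the 3 with the highest WT level in each compartment, and *Hsf1* and *Hsf2*. Other genes named in the promoter and comparison sentences were picked for their role, with their values known. Members, compartments and gene lists were chosen with earlier results of these data known. The lists' *Hikeshi* and *Pfdn6* were not found. Depth was read from the FPKM of a single fragment in genes with 1 transcript, and fragments per gene are approximate. GC content came from the longest transcript in GENCODE vM1 (mm9), and its trend was removed with lowess (span 0.2). Promoters without an entry were those of *Dnajc18*, *Cct4*, *Dnajc2*, *Dnajc22*, *Hspb2*, *Hspa13*, *Hspa9*, *Hspa8*, *Dnajc5b*, *Dnajc30*, *Hsf1*, *Dnajc5*, *Hsp90ab1*, *Dnajc12*, *Hsp90aa1* and *Dnajc11*. Steps were tested on simulated data. Python 3.11.15, pandas 2.3.3, statsmodels 0.14.6 and matplotlib 3.10.9 were used.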

Additional observations from a re-analysis of the deposited data

Results flagged for a closer look

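*Hspb11* was the only member past 1.5-fold in a treated library whose folds against WT lay in opposite directions in Tam and DoxTam, at -0.86 in Tam and 0.50 in DoxTam. The difference between the comparisons was not tested, since each condition has 1 library, and the level in Tam rests on roughly 8 fragments.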

How the results depend on the processing

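No paired analysis was possible because each condition has 1 library, and no library could be left out. The folds of *Hspb8* in Tam and for DoxTam against Tam stayed past 1.5-fold under all 8 alternatives. Members higher and lower in Tam (2 and 3) were 6 and 5 at a pseudocount of 0.1 FPKM, 1 and 0 at 5 FPKM and 1 and 0 among genes at 5 FPKM or more, 7 were higher with libraries rescaled to the same total, and 1 was higher with the GC trend removed. In DoxTam (1 and 2), 3 were higher at 0.1 FPKM, 0 lower at 5 FPKM, 1 lower among genes at 5 FPKM or more, 10 and 0 after rescaling, and 0 and 0 with the GC trend removed. For DoxTam against Tam (2 and 1) they were 4 and 5 at 0.1 FPKM, 1 was higher at 5 FPKM and among genes at 5 FPKM or more, 3 were lower with no filter, and 6 were higher after rescaling. With small RNA genes left out of the rescaled total, the members called were the same as without rescaling in each comparison. The members' median became 0.12 (Tam), 0.35 (DoxTam) and 0.21 (DoxTam against Tam) after rescaling, which counts small RNA genes and moved the median of all genes to 0.15, 0.32 and 0.17. It became -0.0023 (DoxTam) and -0.0012 (DoxTam against Tam) with no filter, and -0.053 and -0.019 with the GC trend removed. Higher and lower calls over all genes were 887 and 456 in Tam and 510 and 716 in DoxTam. They were 1412 and 272 and 2784 and 222 after rescaling, and 595 and 259 and 201 and 282 with the GC trend removed. At 0.1 FPKM they were 1286 and 757 in Tam, 857 and 1145 in DoxTam and 469 and 1145 for DoxTam against Tam. At a pseudocount of 5 FPKM, in the same order, they were 296 and 168, 176 and 262, and 75 and 194. Among genes at 5 FPKM or more they were 500 and 312, 378 and 493, and 150 and 312. For DoxTam against Tam they were 264 and 724, then 297 and 1227 with no filter and 743 and 490 after rescaling. The causes of these moves were not tested. Members under about 5 FPKM rest on few fragments in Tam and DoxTam.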
